A study of Mus musculus with 10 samples.

Results

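The chaperone and heat shock genes of a mouse fibroblast line were examined for their level and for the share of their RNA that was newly made. The set holds 70 of the 17053 genes in the deposited table. It was drawn by symbol (names beginning with Hsp, Dnaja, Dnajb, Dnajc or Cct and a further number or letter, together with Tcp1, Bag3, Hsf1, Hsf2, Stip1 and Ahsa1) with a minimum mean of 50 reads over the 10 libraries. Of 83 symbols that matched, 13 fell under that minimum. The last of those 13 was Dnajc28 with a mean of 21.6 reads, and the least abundant members were Dnajc17 with 93.8 and Dnaja4 with 117.5 reads. Hspb1, the small heat shock protein most often used as a stress marker, was among the 13 with a mean of 0.95 reads. Cct6a, a CCT subunit, is not analysed here. Hspg2, which encodes the matrix proteoglycan perlecan and no chaperone, matched by its name alone and was kept.

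The cells were NIH-3T3, an established line of wild-type embryonic mouse fibroblasts, in 5 groups of 2 libraries with the replicate letters A and B. All were grown in medium with newborn calf serum. In the TUC group, cells received 800 µM 4-thiouridine (4sU) for 2 h after which the RNA was reacted with osmium tetroxide (OsO4) and an ammonium salt. In the SLAM group, the same labelling was followed by iodoacetamide. The unconverted 4sU group had the labelling and no chemistry, the uridine group received 800 µM uridine for 2 h, and the untreated group received neither. RNA made in the presence of 4sU, a thiol-bearing analogue of uridine, carries it at some U positions, which either chemistry makes sequencing read as C. The series asks how these chemistries bias the quantification of RNA. Whether the replicates are separate cultures is not stated in the labels. The p-values therefore describe the spread among these libraries alone, and that spread may be technical.

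Molecular chaperones bind unfolded proteins and help them fold, assemble or be degraded. HSP70 proteins do so in cycles of ATP hydrolysis that J-domain proteins (the Dnaja, Dnajb and Dnajc genes) start and nucleotide exchange factors such as the HSP110 proteins (Hspa4, Hspa4l, Hsph1) complete. HSP90 proteins act later on kinases and receptors, and the CCT ring folds actin and tubulin. Under proteotoxic stress, heat shock factor 1 (Hsf1) binds heat shock elements, inverted repeats of nGAAn units, and raises Hspa1a, Hspa1b, Dnajb1, Hsph1, Hspd1, Hspe1 and others within minutes to hours, so the same genes serve as a readout of whether a treatment stresses cells.

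Promoter sequence is shown for the member with the lowest fold change after TUC chemistry, Hspa4, and for 3 of the 4 members with a heat shock element in their window. It was taken from RefSeq's table for GRCm38.p6, which covered 58 of the 70 members. The build behind the deposited counts is not given in the sources used here. The 250 bases before the start of Hspa4 lie at chr11:53300480-53300729 on the minus strand. Those before the start of Dnajb6, a J-domain protein that keeps aggregation-prone proteins soluble, lie at chr5:29735648-29735897 on the plus strand. Hspd1 and Hspe1, the mitochondrial HSP60 chaperonin and its HSP10 lid, are transcribed away from each other. The table lists several starts for some genes. Between the Hspe1 start and the Hspd1 start that lies clear of it there are 215 bases, while another listed Hspd1 start lies beyond the Hspe1 start and its window holds no match. Of the 215 bases, 30, at chr1:55088053-55088082 on the plus strand, are shown. Capitals mark matches to GAANNTTCNNGAA on either strand.
Hspa4: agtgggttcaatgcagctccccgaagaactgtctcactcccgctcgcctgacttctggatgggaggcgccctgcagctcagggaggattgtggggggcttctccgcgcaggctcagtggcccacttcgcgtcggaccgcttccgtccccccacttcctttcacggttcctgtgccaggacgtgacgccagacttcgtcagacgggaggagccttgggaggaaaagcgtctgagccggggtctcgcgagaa
Dnajb6: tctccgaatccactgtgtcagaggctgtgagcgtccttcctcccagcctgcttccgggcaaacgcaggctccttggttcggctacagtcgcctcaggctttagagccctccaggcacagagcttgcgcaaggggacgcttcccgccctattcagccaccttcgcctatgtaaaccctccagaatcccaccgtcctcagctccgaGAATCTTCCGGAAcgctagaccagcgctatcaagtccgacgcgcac
Hspd1 and Hspe1: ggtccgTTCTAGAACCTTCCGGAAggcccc
In at least 1 window from 250 bases before to 50 bases after a start, this 3-unit element was found in 4 of 58 members (6.9%), namely Dnajb6, Hspd1, Hspe1 and Hsph1, and in 179 of 27025 genes (0.662%). The first base of the Dnajb6 match lies at -46 from the start used above and at -127 from its other start. The Hsph1 match begins after the start, at 16 or 37 by its 2 starts, and is not shown. The 2 overlapping matches between Hspd1 and Hspe1 begin at -89 and -84 from the Hspe1 start. The shorter 2-unit forms GAANNTTC or TTCNNGAA, which the longer element contains, occurred in 16 of 58 members (27.6%) and 4587 of 27025 genes (17.0%), a gene being counted where any of its windows held one. No match in a window says only that these letters are not there.

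Library totals lay between 27094222 and 33785682 counts, and the members took 2.096 to 2.464% of them. The labelled cell type was checked against markers fixed for this purpose. All 10 fibroblast markers were listed, with a summed level of 18639 to 26980 CPM. For the markers, CPM are counts brought to 1 library size by the library totals. In all later paragraphs CPM also use TMM factors. Of the other lists, 2 of 5 epithelial, 4 of 4 endothelial and 2 of 4 muscle or adipocyte markers were listed, and those of each list summed to at most 1.07 CPM in any library. Epcam, Krt18, Krt19, Myod1 and Pparg, not listed in the table, were not analysed here. Of 4 macrophage markers 3 were listed, and they summed to 7.62 to 15.6 CPM through Cd68 and Csf1r, while Ptprc stayed under a mean of 1 CPM. By RefSeq's gene table (GRCm38.p6), 14 members overlap another protein-coding gene (Cct7, Cct8, Dnajb4, Dnajc1, Dnajc7, Dnajc14, Dnajc17, Dnajc19, Dnajc30, Hspa5, Hspb6, Tcp1, and Hspd1 and Hspe1 each other). The strand setting is not stated, so reads of such pairs cannot be told apart. Hspa4 overlaps none. In such bulk samples, fewer cells of a type and less RNA per cell cannot be told apart.

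Levels between genes were compared as TPM, a level that is scaled to the library and corrected for the deposited gene length. Hsp90ab1, the constitutive cytosolic HSP90, had the highest mean with 4370 TPM over the 10 libraries. Hspa8, the constitutive cytosolic HSP70, followed with 2240 TPM, then Hspd1 with 1330, the ER-resident HSP90 Hsp90b1 with 1210 and the ER-resident HSP70 Hspa5 (BiP) with 1090 TPM. The 7 measured CCT subunits lay between 287 TPM (Cct7) and 676 TPM (Cct2). The stress-inducible HSP70 genes stood at the other end of the scale, Hspa1b with 18.3 TPM (15.9 to 20.5) and Hspa1a with 5.32 TPM (4.07 to 6.5). Their counts were not whole in any library, as were those of Hspa8, Hsp90ab1, Tcp1, Dnaja1, Dnajb6 and Dnajb9, as happens where reads shared by near-identical copies are divided, and the split between Hspa1a and Hspa1b is uncertain. Hsf1 averaged 62.6 TPM and Hsf2 13.6 TPM.

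Group differences were tested with edgeR's quasi-likelihood test over 12218 genes, all 70 members among them, and a gene was called at a Benjamini-Hochberg adjusted p under 0.05. In the fit with a group term alone, no member was called in any of the 6 comparisons. In that fit 0.344% of all genes were called between SLAM and unconverted 4sU libraries, 0.164% between unconverted 4sU and untreated, 0.254% between unconverted 4sU and uridine, and 0.0% in the other 3. Of the 70 members, 10 had an unadjusted p under 0.05 for SLAM over unconverted 4sU, against 2284 of the 12218 genes. The members numbered 8 for TUC over SLAM (1205 of all genes) and 2 for TUC over unconverted 4sU (846). They numbered 4 for unconverted 4sU over untreated (1102), 5 for unconverted 4sU over uridine (1237) and 0 for uridine over untreated (46). DESeq2 on the same design called 3 members (Dnajb12, Hsf1 and Hspa13, with 5.72% of all genes) for SLAM over unconverted 4sU. It called 2 (Dnajb9 and Hspa4, with 1.48%) for TUC over SLAM and 1 (Hspa4, with 0.131%) for TUC over unconverted 4sU. In the other 3 comparisons it called 0 (1.97%, 2.28% and 0.0% of all genes). Libraries of the same letter deviated together, and a second fit with the letter as a block lowered the common dispersion to 0.00195, against 0.0187 without it. Below, a gene is said to have risen or fallen where this blocked fit called it, and log2 fold changes are of that fit unless stated otherwise. Single libraries were also left out in turn. The number of all genes called changed in those fits too, so their counts of called members say nothing particular to the members. The SLAM and TUC groups were both set against the same 2 unconverted 4sU libraries, which also serve in the comparisons with uridine and untreated cells, so these comparisons are not independent of each other.

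With the letter as a block, 31 members (44.3%) were called between SLAM and unconverted 4sU libraries, against 41.6% of all genes. TUC over SLAM gave 21 members (30%) against 20.1%, and TUC over unconverted 4sU gave 15 (21.4%) against 25.8%. Unconverted 4sU over untreated gave 7 (10.0%) against 19.9%, with 3 up (6.97% of all genes) and 4 down (12.9%). Scaled to library totals, the split was 2 up and 8 down. Unconverted 4sU over uridine gave 9 (12.9%) against 19.7%, with 2 up (6.48% of all genes) and 7 down (13.3%). Uridine over untreated gave 0 members against 0.00818% of all genes (1 gene), with 2 members and 380 of all genes at an unadjusted p under 0.05. The median log2 fold change of the members ran from -0.02 for unconverted 4sU over uridine (all genes 0.01) to 0.05 for TUC over unconverted 4sU (all genes 0.01).

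The HSP110 gene Hspa4 (ENSMUSG00000020361, chromosome 11) had the lowest fold change of the set after TUC chemistry. Its product exchanges nucleotide on HSP70 and takes part in dissolving aggregates. It measured 347 CPM in TUC A and 259 CPM in TUC B. SLAM A and B held 517 and 511 CPM, unconverted 4sU A and B 557 and 540 CPM, uridine A and B 639 and 618 CPM, and untreated A and B 618 and 606 CPM. The TUC libraries lay below all 8 others, and the replicates of the other groups lay closer together than those of TUC. TUC libraries averaged 303 ± 61.9 CPM and unconverted 4sU libraries 548 ± 11.9 CPM (SD, n = 2 each). The log2 fold change was -0.86 ± 0.08 (SE), with an adjusted p of 2.86e-05 with the letter as a block. Without the block, edgeR gave -0.86 ± 0.13 and an adjusted p of 0.323, and DESeq2 without the block called it (adjusted p 3.79e-05). Against SLAM libraries, which averaged 514 ± 3.88 CPM, the log2 fold change was -0.77 ± 0.08 with an adjusted p of 1.75e-05 (0.22 without the block). Leaving out any 1 of the 4 libraries of either comparison left Hspa4 called in the blocked fit, at -1.07 to -0.68 against unconverted 4sU and -0.98 to -0.58 against SLAM. Among all 12218 genes its fold change ranked 79th from the lowest for TUC over unconverted 4sU and 150th for TUC over SLAM. SLAM chemistry gave no such difference, with a log2 fold change of -0.09 ± 0.08 over unconverted 4sU (adjusted p 0.366) and a rank of 4580.

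**Figure D1:**
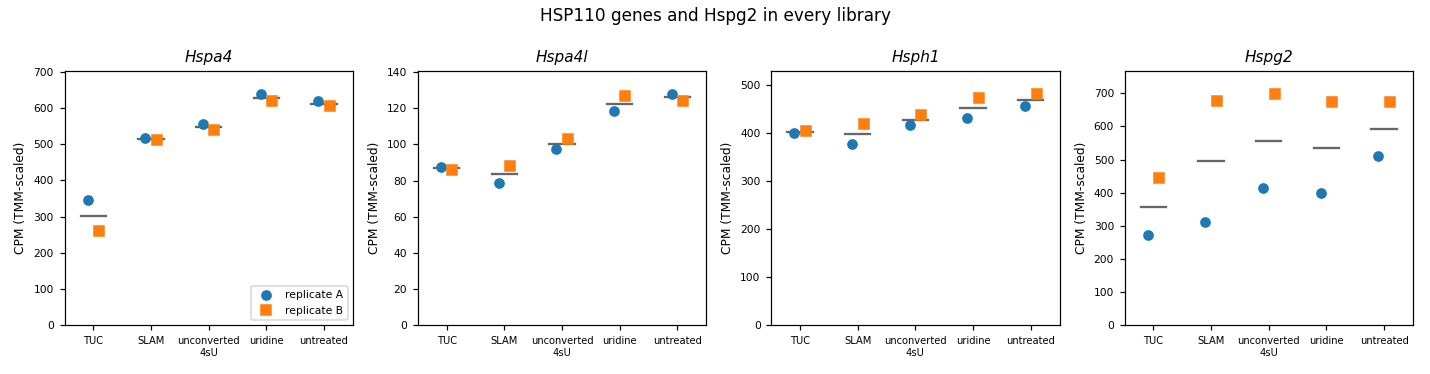
Level in CPM (TMM-scaled, linear axes from 0) of the HSP110 genes Hspa4, Hspa4l and Hsph1 and of Hspg2 in the 10 libraries, by group; circles are replicate A, squares replicate B and bars the mean of the 2. Hspa4 sits at 347 and 259 CPM in TUC libraries and at 511 CPM or more in all others, while Hsph1 stays between 377 and 482 CPM.

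Of the other HSP110 genes, Hsph1 (HSP105) measured 400 and 405 CPM in TUC, 377 and 420 in SLAM, 417 and 439 in unconverted 4sU, 432 and 474 in uridine and 457 and 482 CPM in untreated libraries, and was called in no comparison. Its largest log2 fold change was -0.13 ± 0.05, for unconverted 4sU over untreated libraries (adjusted p 0.0833). Hspa4l fell with labelling itself. It measured 97.5 and 103 CPM in unconverted 4sU libraries, against 128 and 124 CPM in untreated libraries, a log2 fold change of -0.33 ± 0.06 (adjusted p 0.000993) that kept its call whichever 1 of the 4 libraries was left out. It fell further in SLAM libraries (78.6 and 88.0 CPM) relative to unconverted 4sU, by 0.27 on the log2 scale (adjusted p 0.00214). TUC libraries, at 87.7 and 85.9 CPM, were also lower than unconverted 4sU, at -0.21 (adjusted p 0.0194), a call that no leave-one-out fit kept. Hspg2, the matrix gene, fell with TUC chemistry to 272 and 445 CPM, against 415 and 698 CPM in unconverted 4sU libraries. Its log2 fold change was -0.63 ± 0.10 (adjusted p 0.000773; 0.718 without the block), and the groups overlapped because B exceeded A in each group. Against SLAM libraries it fell by 0.42 (adjusted p 0.00877). The fold change was -0.65 without SLAM A and -0.17 without SLAM B, and the call was lost without SLAM B, TUC A or TUC B (largest adjusted p 0.115).

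Labelling with 4sU was set against both control groups. Dnajc13, the endosomal J-domain protein RME-8, had the lowest fold change: 80.7 and 89.9 CPM in unconverted 4sU libraries, against 120.0 and 142.5 CPM in untreated and 115 and 139 CPM in uridine libraries. The log2 fold changes were -0.62 ± 0.07 (adjusted p 7.64e-06) over untreated and -0.57 ± 0.07 (adjusted p 1.56e-05) over uridine, with no overlap between groups. Dnajc2, a ribosome-associated J-domain protein, fell as well, to 77.7 and 61.0 CPM in unconverted 4sU libraries, against 93.3 and 79.4 CPM in untreated libraries (log2 fold change -0.32 ± 0.07, adjusted p 0.0024) and 101 and 82.6 CPM in uridine libraries (-0.41 ± 0.07, adjusted p 0.000315). The groups did not overlap in either comparison. Both genes kept their calls in all leave-one-out fits of both comparisons. Dnajc1, a J-domain protein of the ER membrane, also fell in both, by 0.20 and 0.24, and lost the call whichever 1 library was left out (adjusted p 0.0936 to 0.28).

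Few members rose with 4sU. Hspa8 measured 3187 and 2601 CPM in unconverted 4sU libraries, against 2626 and 2227 CPM in untreated and 2667 and 2386 CPM in uridine libraries. Its log2 fold changes were 0.25 ± 0.06 (adjusted p 0.0065) and 0.19 ± 0.06 (adjusted p 0.0319), and the calls held in 1 and 0 of 4 leave-one-out fits. Against untreated cells the other 2 that rose were Dnajc25 (0.26, adjusted p 0.00836) and Hspe1 (0.20, adjusted p 0.0421). Against uridine it was Bag3 (0.24, adjusted p 0.011), the HSP70 co-chaperone of selective autophagy. Dnajc25 was lost without unconverted 4sU B or untreated B, and Hspe1 and Bag3 whichever 1 library was left out (adjusted p up to 0.205, 0.273 and 0.157). The other members that fell against uridine were Hspa4l (-0.29), Dnajc21 (-0.27), Dnajb14 (-0.24) and Dnajc7 (-0.22). Dnajc21 and Dnajc7 lost the call whichever 1 library was left out (adjusted p up to 0.0949 and 0.122), and Hspa4l lost it without unconverted 4sU A or uridine B (up to 0.0643). Dnajb14 kept it in 1 of 4 fits, at -0.40 without unconverted 4sU B, and was at -0.11 (adjusted p 0.49) without unconverted 4sU A. Leaving out 1 library gave 4 or 5 called members against untreated (5 without unconverted 4sU A, 4 without unconverted 4sU B, 4 without untreated A, 5 without untreated B). It gave 2 to 4 against uridine (2 without unconverted 4sU A, 4 without unconverted 4sU B, 3 without uridine A, 2 without uridine B).

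The HSF1-inducible genes were read as a panel of 10: Hspa1a, Hspa1b, Hspa8, Hsph1, Dnajb1, Hsp90aa1, Hspb1, Bag3, Hspd1 and Hspe1. Hspb1 was under the minimum, so 9 were measured. Hspa8, named above as the constitutive cytosolic HSP70, is among these 9. With 4sU, 2 of 9 rose and 0 fell in either comparison, Hspa8 and Hspe1 over untreated and Hspa8 and Bag3 over uridine. Of all genes, 6.97% rose and 12.9% fell over untreated, and 6.48% rose and 13.3% fell over uridine. How these calls fared without single libraries is given above. The inducible HSP70 genes were not among the panel genes that rose. Hspa1a measured 6.16 and 5.82 CPM in unconverted 4sU libraries, against 6.75 and 6.79 CPM in untreated libraries, and Hspa1b 20.6 and 19.0 CPM against 21.6 and 21.0 CPM. Dnajb1, the main J-domain partner of cytosolic HSP70, lay between 53.7 and 68.5 CPM in all libraries, and its log2 fold changes ran from -0.02 to 0.06 over the 6 comparisons with an SE of 0.06 in each. Hsp90aa1, the inducible HSP90, was likewise never called, with 1315 and 1128 CPM in unconverted 4sU libraries, against 1231 and 1076 CPM in untreated libraries. With uridine, 0 of 9 were called in either direction, against 0.00818% of all genes.

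**Figure D2:**
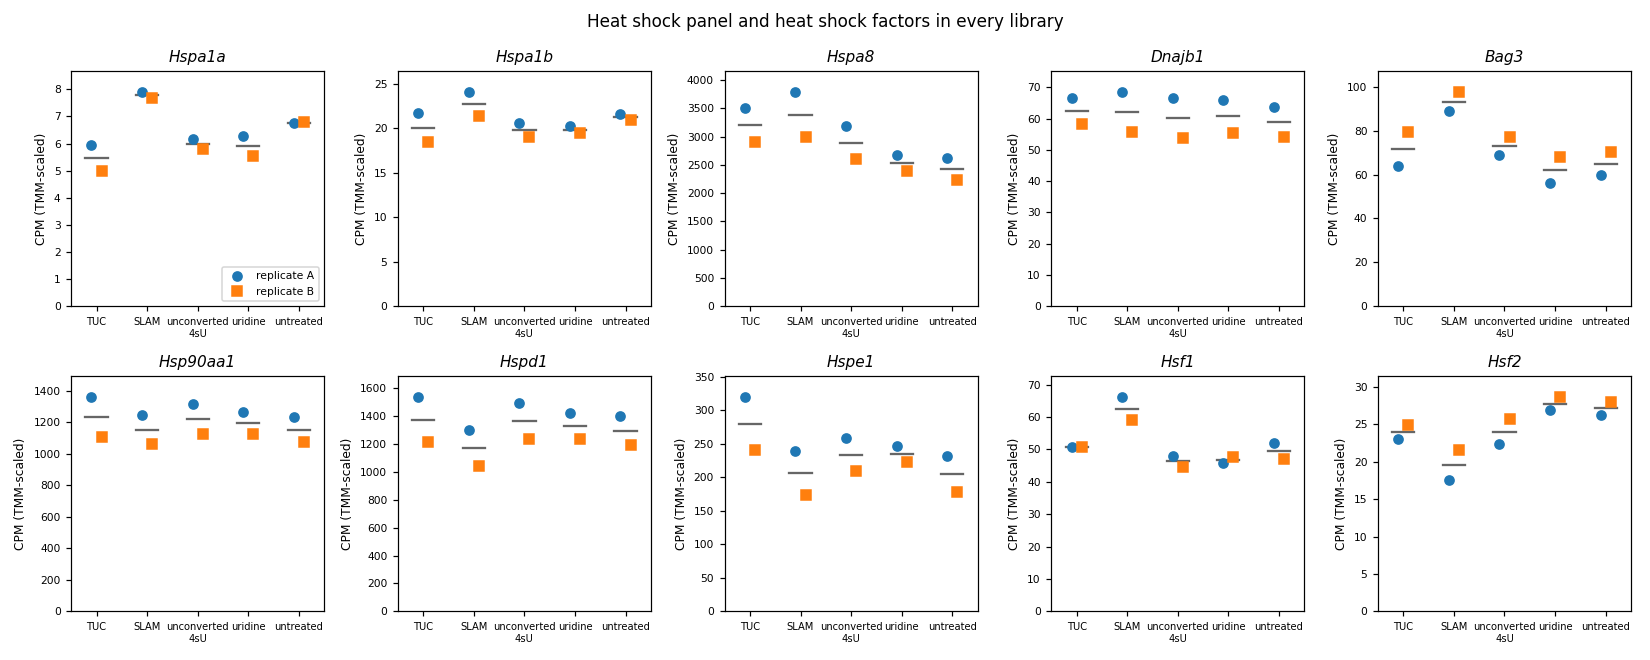
Level in CPM (TMM-scaled, linear axes from 0) of 8 HSF1-inducible genes and of the heat shock factors Hsf1 and Hsf2 in the 10 libraries, by group; circles are replicate A, squares replicate B and bars the mean of the 2. Hsf1 is highest in SLAM libraries at 66.1 and 59.2 CPM, Bag3 is highest there too at 88.9 and 97.5 CPM, and Dnajb1 lies between 53.7 and 68.5 CPM throughout.

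SLAM chemistry moved 13 members up (background 20.0%) and 18 down (background 21.6%) relative to unconverted 4sU RNA. Hsf1 rose to 66.1 and 59.2 CPM in SLAM libraries, against 48.0 and 44.7 CPM in unconverted 4sU libraries, a log2 fold change of 0.43 ± 0.07 (adjusted p 0.000111; 0.0917 without the block). Hsf2, a second heat shock factor that acts mainly in development, fell to 17.6 and 21.7 CPM, against 22.3 and 25.7 CPM (-0.29 ± 0.08, adjusted p 0.00556). The groups did not overlap for either factor, and the Hsf1 call stood in all leave-one-out fits while that of Hsf2 was lost without SLAM A or unconverted 4sU B (adjusted p up to 0.0811). Hspb6, a small heat shock protein of muscle, had the largest rise (0.63 ± 0.10): 24.1 and 28.7 CPM in SLAM libraries, against 12.8 and 21.8 CPM in unconverted 4sU libraries. Bag3 rose to 88.9 and 97.5 CPM, against 69.0 and 77.2 CPM (0.35 ± 0.06, adjusted p 0.000243). Dnajb12, an ER membrane J-domain protein that helps degrade misfolded membrane proteins, rose to 79.3 and 74.9 CPM, against 60.9 and 52.9 CPM (0.44 ± 0.06, adjusted p 6.55e-05).

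Each member was counted under a single role. J-domain genes placed with the ER or mitochondrial chaperones are therefore left out of the counts of the J-domain classes. By role, 4 of 6 cytosolic HSP70 genes rose with SLAM chemistry and 0 fell: Hspa1a (0.38), Hspa2 (0.25), Hspa8 (0.22) and Hspa1b (0.20). Hspa1a measured 7.89 and 7.67 CPM in SLAM libraries, against 6.16 and 5.82 CPM in unconverted 4sU libraries. None of these 4 calls was kept in all leave-one-out fits. Among co-chaperones, Hspbp1, an exchange factor for HSP70, rose beside Bag3 (0.35), and in the CCT ring Cct5 (0.23) and Cct7 (0.22) did. Dnajc4 (0.42) and Dnajc30 (0.34) completed the 8 largest rises. Without SLAM A, Dnajc4 was at 0.24 and not called, and Hspbp1 was at 0.23 and still called. On the other side, 3 of the 8 members grouped as ER chaperones fell and 0 rose, against 21.6% and 20.0% of all genes. Dnajb12, which rose, and Dnajb14, which fell, are of the ER membrane but were counted with the J-domain classes. Hspa13, an HSP70-related protein of the ER, fell to 38.9 and 38.0 CPM, against 49.0 and 50.0 CPM (-0.36 ± 0.06, adjusted p 0.000213). Dnajb9 (ERdj4), a BiP partner induced by the unfolded protein response, fell to 18.9 and 17.3 CPM, against 22.4 and 23.5 CPM (-0.35 ± 0.08, adjusted p 0.00343), a call lost without unconverted 4sU B (adjusted p 0.0668). Dnajc3 (p58IPK) fell by 0.22. BiP itself was not called, with 1713 and 1545 CPM in SLAM libraries, against 1760 and 1499 CPM.

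Of the 10 class A and B J-domain proteins not placed in the ER or mitochondrial groups, 5 fell with SLAM chemistry and 1 (Dnajb12) rose. For this and the role counts below, 21.6% of all genes fell and 20.0% rose. Dnajb14, an ER membrane protein related to Dnajb12, had the lowest fold change of the comparison: 21.2 and 26.6 CPM in SLAM libraries, against 27.1 and 41.3 CPM in unconverted 4sU libraries (-0.51 ± 0.08, adjusted p 0.000161). Dnajb4 fell by 0.28, Dnajb6 by 0.22, Dnajb2 by 0.21 and Dnaja1 by 0.18. Of the 15 class C members outside the ER and mitochondrial groups, 4 fell, led by Dnajc5 (cysteine string protein of secretory vesicles, -0.33) and Dnajc13 (-0.29), and 1 rose. In mitochondria, 4 of 8 fell, Hspd1 (-0.22), Hspe1 (-0.19), Dnajc11 (-0.18) and the HSP70 Hspa9 (-0.17), and Dnajc30 rose. Without SLAM A Dnajc13 was at -0.16 and still called, and without SLAM B Hspe1 was at -0.12 and not called. Neither cytosolic HSP90 gene was called. In all, 9 of the 31 calls stood whichever 1 of the 4 libraries was left out: Bag3, Cct5, Dnajb12, Hsf1 and Hspb6 among those that rose, and Dnajb14, Dnajc5, Hspa13 and Hspa4l among those that fell. The number of called members was 25 without SLAM A, 40 without SLAM B, 16 without unconverted 4sU A and 13 without unconverted 4sU B.

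**Figure D3:**
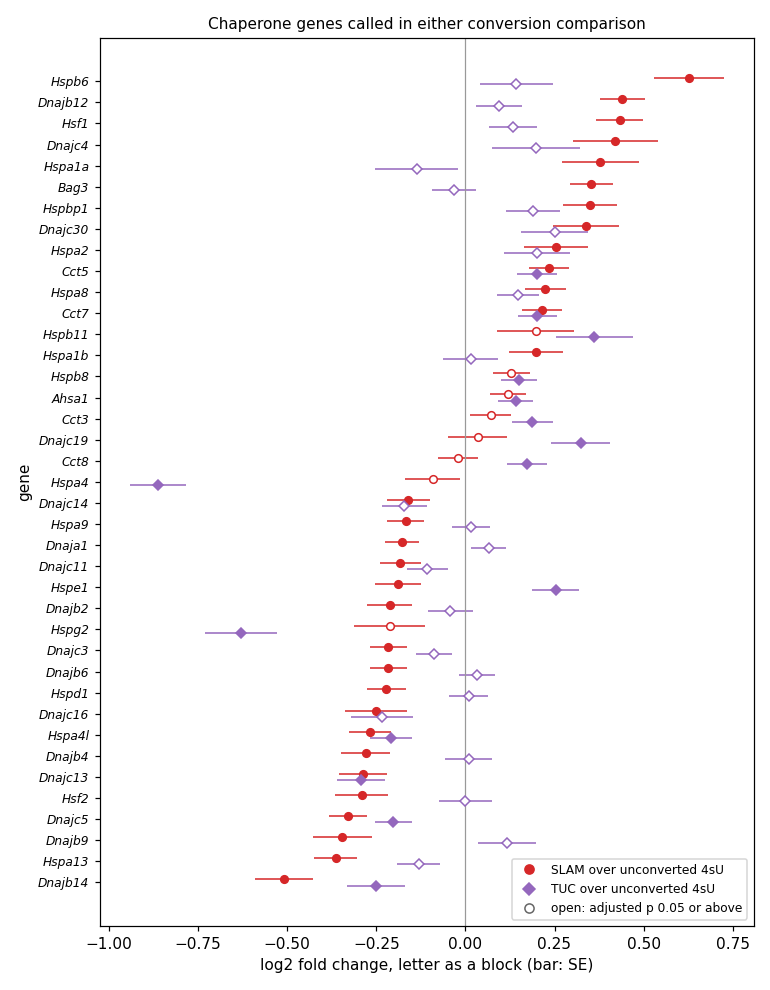
Log2 fold change (letter as a block; bar, SE) of the 39 members called in SLAM or TUC over unconverted 4sU libraries, ordered by the SLAM value; circles are SLAM, diamonds TUC, and open symbols did not pass the threshold. Hspa4 and Hspg2 lie farthest left for TUC at -0.86 and -0.63, and SLAM values run from -0.51 (Dnajb14) to 0.63 (Hspb6); both series share the same 2 unconverted 4sU libraries.

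TUC chemistry moved 9 members up (background 11.6%) and 6 down (background 14.2%) relative to unconverted 4sU RNA. Beside Hspa4 and Hspg2, those that fell were Dnajc13 (-0.29), Dnajb14 (-0.25), Hspa4l (-0.21) and Dnajc5 (-0.20). Dnajb14 lay at -0.38 without unconverted 4sU A and at -0.09 without unconverted 4sU B, and lost the call there and without TUC B (adjusted p up to 0.574). Dnajc13 lost it without TUC B or unconverted 4sU A (up to 0.145), and Dnajc5 kept it in 1 of 4 such fits. The CCT ring supplied 4 of the 9 that rose. Cct7 measured 569 and 424 CPM in TUC libraries, against 492 and 371 CPM in unconverted 4sU libraries (0.20 ± 0.06), and Cct5 643 and 489 CPM against 558 and 427 CPM (0.20 ± 0.06). Cct3 (0.19) and Cct8 (0.17) rose too, while Tcp1, Cct2 and Cct4 did not pass. The values of A and B interleave between groups, because all 7 subunits were higher in A than in B in every group, by 0.15 to 0.54 on the log2 scale. The other 5 that rose were Hspb11 (0.36), which despite its name works in intraflagellar transport, Dnajc19 of the mitochondrial import motor (0.32), Hspe1 (0.25), Hspb8 (0.15) and Ahsa1, the activator of HSP90 ATPase (0.14). Without TUC A, Cct8 was at 0.08 and Hspb11 at 0.23, and without unconverted 4sU A Dnajc19 was at 0.21, none of them called. Only Hspa4 and Hspg2 of these 15 were called in each fit that left out 1 library, and 7, among them Cct3, Cct5 and Cct7, were called in none. The count of called members was 5 without TUC A, 4 without TUC B, 3 without unconverted 4sU A and 5 without unconverted 4sU B.

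The chemistries were also compared directly. TUC over SLAM gave 14 members that rose (background 10.0%) and 7 that fell (background 10.1%). After Hspa4, the members that fell were Hspa1a (-0.52), Hspb6 (-0.48), Hspg2 (-0.42), Bag3 (-0.38), Dnajb12 (-0.35) and Hsf1 (-0.30). Bag3 measured 63.8 and 79.4 CPM in TUC libraries, against 88.9 and 97.5 CPM in SLAM libraries (adjusted p 0.000419), with no overlap. Hsf1 measured 50.8 CPM in both TUC libraries, against 66.1 and 59.2 CPM in SLAM libraries (adjusted p 0.00475), a call lost without TUC A (adjusted p 0.0872). Those that rose were led by Dnajb9, with 23.5 and 26.2 CPM in TUC libraries, against 18.9 and 17.3 CPM in SLAM libraries (0.46 ± 0.08, adjusted p 0.00115). Hspe1 measured 319 and 240 CPM in TUC libraries, against 239 and 173 CPM in SLAM libraries (0.44 ± 0.07, adjusted p 0.000264), and its partner Hspd1, which shares the promoter shown above, 1530 and 1211 CPM against 1298 and 1037 CPM (0.23 ± 0.06, adjusted p 0.00767). Neither the Dnajb9 nor the Hspe1 groups overlapped, and the Hspd1 call was lost without TUC A (adjusted p 0.119). Dnaja4 (0.42), Hsf2 (0.29), Dnajb4 (0.29), Dnajc19 (0.29), Dnajb14 (0.26) and Dnajb6 (0.25) followed. Without TUC A, Dnajc19 was at 0.19 and Dnajb14 at 0.17, neither called.

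By role, 6 of 10 class A and B J-domain proteins were higher in TUC than in SLAM libraries and 1 was lower. Of all genes, 10.0% were higher and 10.1% lower. Of 8 mitochondrial chaperones, 4 were higher, among them the class C gene Dnajc19, and 0 were lower. Both J-domain classes were counted without the genes placed in the ER or mitochondrial groups. Of the 15 class C members counted in this way, 0 were called. In the HSF1-inducible panel, Hspd1 and Hspe1 rose and Bag3 and Hspa1a fell. Of the 21 calls, Hspa4, Bag3, Dnaja1, Dnajb9 and Hspe1 held whichever 1 library was left out. The number called was 8 without TUC A, 12 without TUC B, 23 without SLAM A and 21 without SLAM B.

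The members differed between the letters in every group. Of the 70 genes, 38 were higher in A than in B in all 5 groups, 13 were higher in B in all 5, and 19 were mixed. The matching shares of all genes were not counted. Over all genes tested, the differences between A and B also correlated between groups (r between 0.584 and 0.69). The median log2 difference of A over B was 0.20 in TUC, 0.17 in SLAM, 0.11 in unconverted 4sU, 0.10 in uridine and 0.08 in untreated libraries, against -0.02 to 0.01 over all genes. What a letter stands for is not stated in the labels, and its part in the results was not tested beyond the block.

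Chaperone genes outside the naming rule were counted in lists of partners and folding factors, 54 genes in all. The shares of all genes called and the median of all genes are given beside each count. With SLAM chemistry 20 rose (37.0%, against 20.0% of all genes) and 2 fell (3.7%, against 21.6%), with a median log2 fold change of 0.13 (all genes 0.001). With TUC chemistry 17 rose (31.5%, against 11.6%) and 0 fell (against 14.2%), with a median of 0.12 (all genes 0.009). Both comparisons are over unconverted 4sU. Of 6 prefoldin subunits, which hand actin and tubulin to the CCT ring, 5 rose in TUC libraries (median 0.24) and 2 in SLAM libraries (median 0.04). Bag6, a holdase for tail-anchored proteins, rose in SLAM libraries by 0.33 and was lower in TUC than in SLAM libraries by 0.36. TUC over SLAM called 10 up (18.5%, against 10.0%) and 3 down (5.56%, against 10.1%), with a median of 0.01 (all genes 0.001). With 4sU, 6 rose (11.1%, against 6.97%) and 4 fell (7.41%, against 12.9%) over untreated, with a median of 0.09 (all genes 0.008). Over uridine 3 rose (5.56%, against 6.48%) and 4 fell (7.41%, against 13.3%), with a median of 0.10 (all genes 0.013), the 4 that fell being Clpx, Tomm70a, Chordc1 and Ttc4 in both. Clpx, the unfoldase of a mitochondrial protease, averaged 19.2 CPM in unconverted 4sU libraries, against 28.5 CPM in untreated libraries (-0.57 ± 0.07, adjusted p 2.96e-05). Of 8 stress genes that are not chaperones, 1 (Rgs2, 0.49) rose over untreated cells, and Hmox1 and Atf3 were not called. Without the block 0 of the 54 were called in any comparison, and over uridine against untreated 0 were called in either fit.

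The table also gives a fraction per gene and library whose name the headers leave out. It was read as a new-to-total ratio (NTR): the part of the RNA of a gene that was made while the label was present. In the absence of conversion it was near 0: the members' medians were 0.0172 and 0.0149 in unconverted 4sU A and B and 0.0114 and 0.0089 in uridine A and B, and the highest single value was 0.102 (Dnajc4 in uridine A). After conversion, the 69 members with enough reads had medians of 0.443 and 0.515 in TUC A and B and 0.432 and 0.481 in SLAM A and B. The medians over 10202 genes were higher, at 0.544 and 0.630 in TUC and 0.523 and 0.611 in SLAM. By the mean of the 4 libraries, 41 of 69 members lay below the median gene. The B libraries gave the higher NTR in 62 members for TUC and 58 for SLAM, and the medians over all genes were higher in B too.

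The members spanned most of the range of NTR. The highest were Dnajb9 (mean 0.964), Dnajb4 (0.964), Dnajb5 (0.958), Hsf2 (0.956), Dnajb1 (0.943), Hspbap1 (0.941), Bag3 (0.911) and Dnajc27 (0.891), so for these nearly all RNA present was assigned to the 2 h of labelling. Hsf1 stood lower at 0.582, and the inducible Hspa1b had 0.665 and 0.767 in TUC and 0.693 and 0.683 in SLAM libraries. The lowest were Hspb11 (0.119), the ER disulfide reductase Dnajc10 (0.121), Dnajc4 (0.143), Hspb6 (0.152), Dnajc19 (0.172), Dnajc15 (0.195), Hsp90b1 (0.199) and Hspg2 (0.239). Within the ER group, Dnajb9 and Dnajc10 therefore lie near opposite ends, with 0.975 and 0.963 against 0.119 and 0.144 in TUC libraries. The 7 CCT subunits were close to each other, between 0.284 and 0.345, and Hspd1 (0.382) exceeded Hspe1 (0.274).

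**Figure D4:**
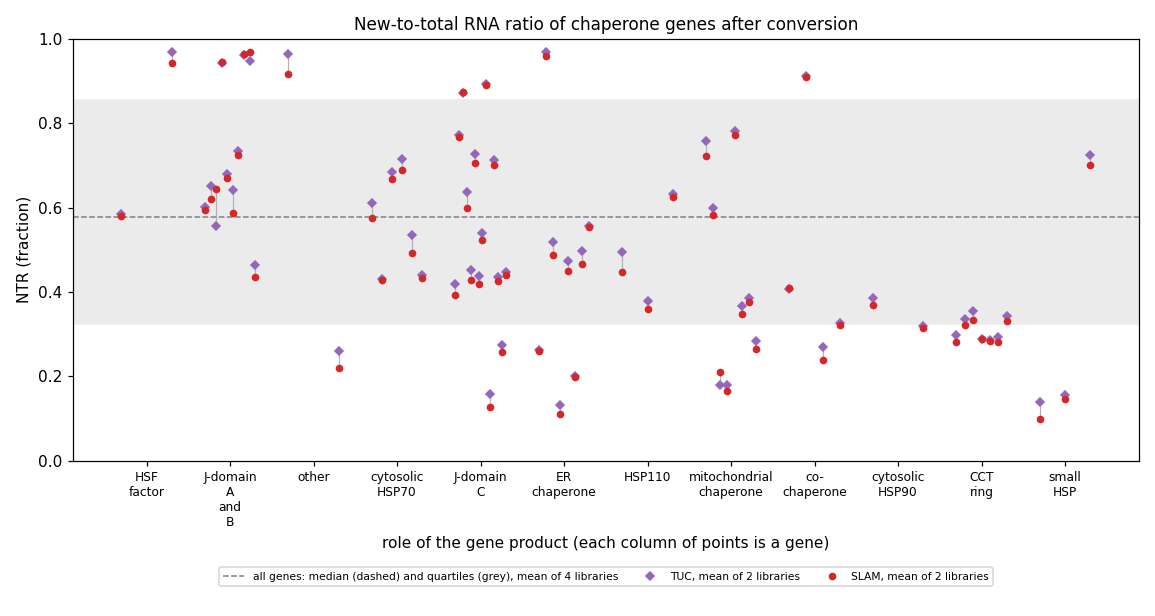
NTR (fraction, linear axis) of the 69 members with enough reads, grouped by role; diamonds are the mean of the 2 TUC libraries, circles that of the 2 SLAM libraries, and the dashed line and grey band are the median and quartiles of all genes tested (mean of the 4 libraries). CCT subunits sit between 0.280 (Cct2, SLAM) and 0.356 (Cct4, TUC), below the all-gene median, while the class A and B J-domain group reaches 0.968 (Dnajb5, SLAM).

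No member passed the test for a difference in NTR between the chemistries. The TUC mean exceeded the SLAM mean in 61 of 69, with a median difference of 0.10 on the log2(NTR / (1 - NTR)) scale, against 0.09 over all genes. limma called 0 members in this comparison, against 0.265% of all genes. At an unadjusted p under 0.05 there was 1 member, against 245 of 10202 genes. With the letter as a block there were 5 members, against 806 genes. Since B exceeded A, the median difference of the members turned to -0.10 without SLAM A and -0.12 without TUC B, and was 0.33 without SLAM B and 0.32 without TUC A. Dnaja4 had 0.487 and 0.628 in TUC libraries, against 0.567 and 0.723 in SLAM libraries, and at 117.5 mean reads its deposited 90% intervals are wide (0.413 to 0.562 in TUC A, 0.478 to 0.653 in SLAM A).

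The NTR of Hspa4 was 0.443 and 0.548 in TUC libraries, against 0.411 and 0.485 in SLAM libraries, with deposited 90% intervals of 0.434 to 0.452 in TUC A and 0.403 to 0.418 in SLAM A. Multiplying CPM by NTR splits its level into new and pre-existing RNA. New Hspa4 RNA came to 154 and 142 CPM in TUC libraries, against 212 and 248 CPM in SLAM libraries. Pre-existing RNA came to 193 and 117 CPM in TUC libraries, against 305 and 263 CPM in SLAM libraries. Both portions were thus lower in each TUC library than in either SLAM library. Hsph1, of the same family and called in no comparison, had an NTR of 0.594 and 0.673 in TUC libraries, against 0.579 and 0.670 in SLAM libraries.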

How the data were processed

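RNA-seq of 10 NIH-3T3 libraries was analysed from 1 deposited table. Per the submitters' processing notes, cutadapt, Bowtie2 2.3.0 and STAR 2.7.10b were used. Build, annotation, counter, strand setting and NTR tool: not given in the sources used here. Per the file headers, expected counts per gene were deposited unscaled, and 24.8 to 30.3% of genes per library are not whole. NTR was deposited as a fraction (posterior mode) with 5% and 95% quantiles for 8 libraries, per the file headers, which do not name the quantity. Gene length was deposited without its type. A further 24 columns were not used.

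Members, lists and tests were chosen with earlier results of these data known. Expected counts were rounded, filtered (filterByExpr), scaled (TMM) and tested with edgeR 4.0.16 (R 4.3.3) in 1 fit over 10 libraries, without and with the replicate letter as a block. The main fit fixed for this work has no block. The letters, taken from the titles, were treated as pairing libraries because, over all genes tested, the log2 difference between A and B in 1 group correlated with that in another (r between 0.584 and 0.69 for the 10 combinations of groups). DESeq2 1.42.0, library totals, no filter and leaving out each library were alternatives. NTR was tested with limma 3.58.1 on log2(NTR / (1 - NTR)), held within 0.001 to 0.999, for genes averaging at least 100 reads in SLAM and TUC libraries. TPM used the deposited lengths. Scripts were tested on simulated data. By the rule for named genes, Hspa4, the heat shock panel, the CCT ring and up to 8 called members each way per comparison were named, with the 8 highest and 8 lowest by NTR; other genes were named after their values were seen.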

Additional observations from a re-analysis of the deposited data

How the results depend on the processing

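Without the block, 0 members were called in each comparison by edgeR, also with library totals, without the filter and without any 1 library. With the replicate letter as a block the counts were 31 for SLAM over unconverted 4sU, 21 for TUC over SLAM, 15 for TUC over unconverted 4sU, 7 for unconverted 4sU over untreated, 9 for unconverted 4sU over uridine and 0 for uridine over untreated; DESeq2 without the block gave 3, 2 and 1 for the first 3. The block lowers the spread by removing the difference between letters. In the fits without a library, the number of all genes called changed as well as that of the members. In the blocked fit, leaving out 1 library gave 13 to 40, 8 to 23, 3 to 5, 4 to 5, 2 to 4 and 0 to 0 members in the same order, where a lone library is assumed to vary like the other groups; with DESeq2, library totals and no filter the total of called members stayed within 1.5 times the blocked count, while library totals split unconverted 4sU over untreated into 2 up and 8 down. Of 504 fold changes of named genes refitted with the block and without 1 library, 352 kept their side of the threshold, 151 lost the call and 1 gained it; with the other blocked alternatives 348 of 378 kept it. Both totals include Hspa4 and panel genes in comparisons where they were not called. Those values had no call to lose, so the shares kept are not those of the calls alone. No named gene reversed a call. For NTR, 0 members were called under each alternative. Member reads limit the least abundant genes (Dnajc17, Dnaja4, Hspa1a) most.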
